A study of Mus musculus with 8 samples.

Results

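The genes described here are 9 markers of the pancreatic duct, in bulk RNA-seq of islets from 8 aged mice: the keratins Krt7, Krt8, Krt18 and Krt19, the transcription factors Sox9 and Onecut1, the chloride and bicarbonate channel Cftr, the membrane mucin Muc1 and the claudin Cldn7. They were taken by symbol, each matched to 1 Ensembl identifier, from a table of 53012 identifiers, and the question asked of them is how much duct RNA each islet preparation carried and whether it differed between the groups.

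Pancreatic ducts are lined by a simple epithelium that carries the acinar enzymes to the gut and adds bicarbonate-rich fluid through apical channels. Duct cells keep a keratin skeleton in which a type II keratin (Krt7 or Krt8) pairs with a type I keratin (Krt18 or Krt19), and they retain Sox9 and Onecut1, transcription factors that most endocrine cells lose as they mature. Islets are freed from the exocrine tissue by collagenase and purified, so that a preparation can carry fragments of duct and acinus. Simple keratins and claudins are made by several epithelia, and their presence does not by itself name a duct cell.

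Both groups were Igf1r flox/flox mice of 17 months and each held males and females, with the sex of a mouse not labelled. The 4 βIgf1rKD mice (M145, M146, M149 and M150) were Ins1-CreERT2+/- and received tamoxifen at 0.075 mg/g in 5 injections, which lets Cre act in β-cells. The 4 βIgf1r mice (M148, M151, M152 and M153) were Ins1-CreERT2-/- and received corn oil. Cre and tamoxifen were thus present in the same mice and cannot be told apart. Each mouse gave its own library, from islets collected 7 days after injections ended. The methods name a rat insulin promoter for the Cre whereas the genotype is written Ins1-CreERT2.

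Total estimated counts per mouse ran from 21634080 to 31202154 in the βIgf1r group and from 23826023 to 42391328 in the βIgf1rKD group. Igf1r itself lay between 46.9 and 60.9 CPM (counts scaled to library size after TMM correction) in βIgf1r and between 46.9 and 57.9 CPM in βIgf1rKD islets, but a count over the whole gene includes the exons outside the floxed one and does not check the deletion. Islet endocrine genes, a list of 18 with hormone, secretory granule and transcription factor genes among them, took 20.6% to 28.5% of counts in βIgf1r and 14.3% to 28.1% in βIgf1rKD libraries. Acinar enzymes, a list of 12, took 2.48% to 18.1% and 5.15% to 20.6%. The library of M149 held many of the extreme values. It had the highest value of the 8 mice in 8 of the 12 acinar genes, in 7 of 10 fibroblast and pericyte genes and in 6 of 9 leukocyte genes tested, and the lowest in 10 of the 18 endocrine genes. Over all genes tested it was highest in 16.2% and lowest in 14.5%. By summed share it was less apart. Acinar genes took 20.6% in M149 and 18.1% in M152, and endocrine genes 15.05% in M149 and 14.3% in M145. Leukocyte genes took 0.0311% in M149 and 0.0462% in M151. Col3a1, a fibrillar collagen, was at 108 CPM in M149 against 7.89 to 44.9 in the other mice, and Csf1r, the macrophage growth factor receptor, at 24.1 CPM against 10.2 to 15.2. M146 was lowest in 9 of the 10 fibroblast and pericyte genes, and in 15.8% of all genes tested. The comparisons of the 9 markers between the groups are therefore given below with and without M149.

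On a per-length scale the 9 markers spanned a wide range of levels. Over the 8 mice, mean CPM per kilobase of the principal transcript was 78.4 ± 27.5 (SD, n = 8) for Krt18, 59.0 ± 28.3 for Krt8, 37.4 ± 5.26 for Krt7 and 27.1 ± 3.90 for Cldn7. It was 7.80 ± 7.12 for Muc1, 3.88 ± 5.06 for Krt19, 0.341 ± 0.251 for Sox9, 0.0900 ± 0.0863 for Onecut1 and 0.0726 ± 0.0782 for Cftr. The difference in means was within the larger SD for Krt18 and Krt8, Krt8 and Krt7, Muc1 and Krt19, and Onecut1 and Cftr. Krt7 lay above Cldn7 and Krt18 above Krt7 by more than 1 SD of each. An SD between mice does not compare genes within a library. Within libraries Krt8 over Krt18 ran from 0.553 to 0.939, Krt8 over Krt7 from 0.9925 to 3.74 and Krt19 over Muc1 from 0.205 to 1.18. The lowest Krt19 value, 0.838, was just above the highest Sox9 value, 0.821. Krt19, the keratin most often used to mark ducts, thus stood far below Krt7, Krt8 and Krt18 in these islets. The channel Cftr and the transcription factors Sox9 and Onecut1 were the lowest of all.

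The low end was sparse in counts. Cftr was supported by 3 to 32 estimated counts per mouse, Onecut1 by 0 to 23 and Sox9 by 12 to 78. Of the further duct genes listed, 4 did not pass the filter on low counts, among them the secretin receptor Sctr with 0 to 3 counts and the water channel Aqp5 with 0 to 5. Of 6 genes of mesothelium, the pancreatic surface layer that also makes these keratins and Muc1, 4 failed the filter, with 0 to 9 counts for Upk3b, 0 to 4 for Upk1b, 0 to 34 for Wt1 and 0 to 17 for Lrrn4. In M149 those 4 genes had 3, 1, 0 and 1 counts. The other 2 passed: Msln was at 13.98 to 27.8 CPM, with 18.9 CPM in M149, and Gpm6a was at 1.96 to 4.77 CPM, with 2.18 CPM in M149.

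Grouped by the ratio of the highest to the lowest mouse, the markers fell into a steadier and a more variable set. Counting error, large for Cftr and Onecut1, adds to such a ratio at low counts, by an amount that was not tested. The highest of the 8 mice exceeded the lowest by 1.49-fold for Krt7, 1.52-fold for Cldn7, 2.998-fold for Krt18 and 3.15-fold for Krt8. The same ratio was 10.6-fold for Sox9, 13.0-fold for Cftr, 13.5-fold for Muc1 and 19.4-fold for Krt19, and Onecut1 ranged from 0 counts to 1.001 CPM. M149 had the highest level of 8 of the 9 markers, Krt7 being the exception, against 16.2% of all 15474 genes tested in which M149 was highest. M146 had the lowest level of Krt19, Onecut1, Cftr and Muc1, 4 of the 9, and was lowest in 15.8% of all genes tested. M151 had the lowest level of Krt7, Krt8, Krt18 and Cldn7, also 4 of the 9, and was lowest in 13.5% of all genes tested.

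**Figure D1:**
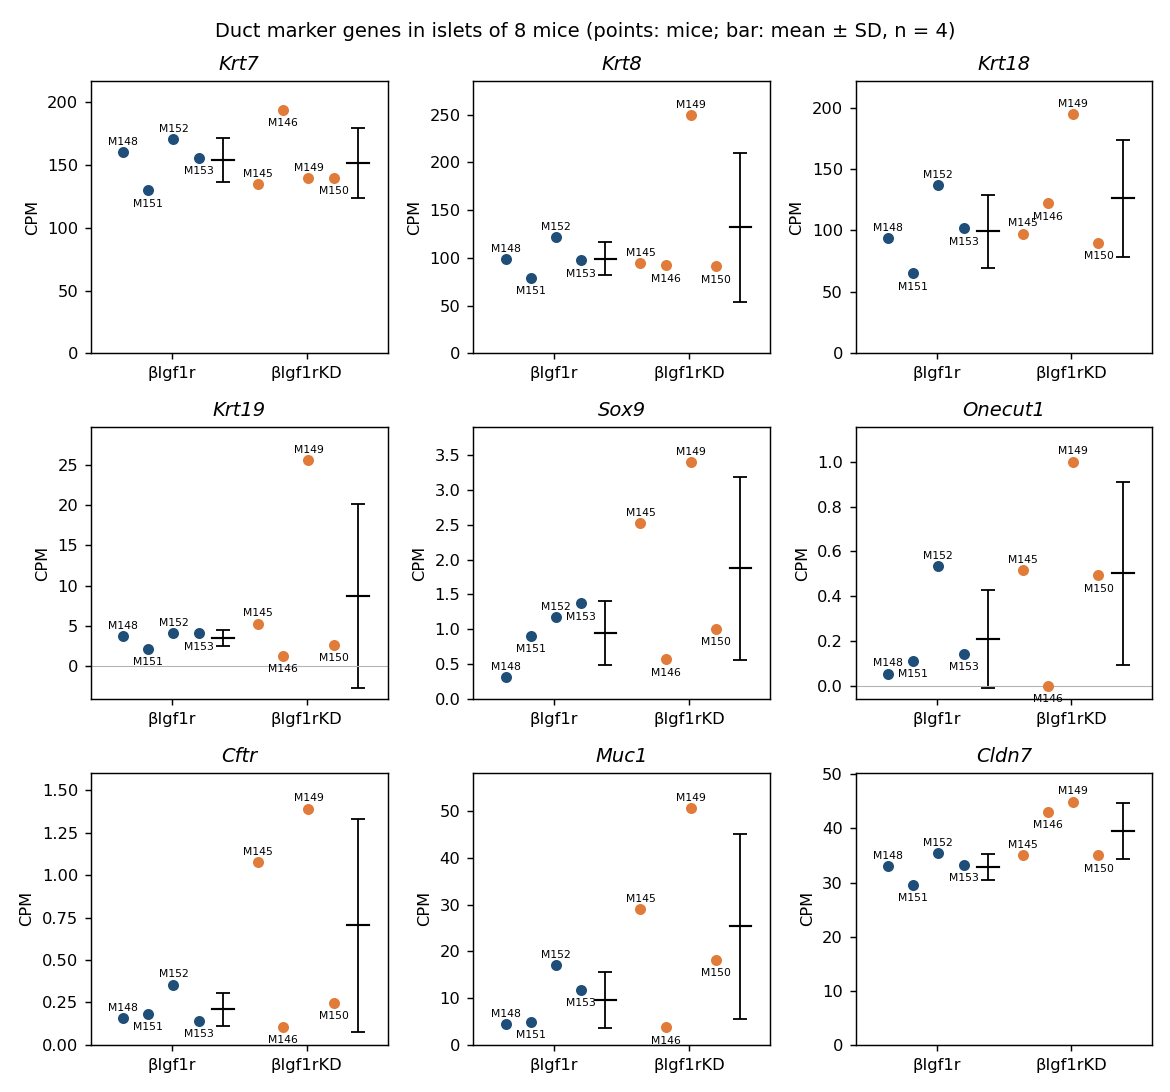
CPM of the 9 duct markers in islets of each mouse, by group (points are mice, bars are mean ± SD, n = 4, vertical axes in CPM and different for each gene). M149 is the highest point in every panel but that of Krt7, where M146 is highest at 194 CPM, and the groups overlap in all 9 panels.

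No duct marker differed between the groups at an adjusted p under 0.05. In edgeR's quasi-likelihood fit, adjusted by Benjamini-Hochberg, 0% of the 15474 genes tested passed that threshold. An unadjusted p under 0.05 was found for 4.12%, of which 2.23% were higher and 1.89% lower in βIgf1rKD. Of the 8 markers that passed the filter on low counts (all but Cftr) 1 had an unadjusted p under 0.05, Cldn7, and this share is read against the 4.12% of all genes. The fitted fold change was above 0 for 7 of the 8 and below 0 for Krt7, where 52.3% of all genes tested lay above 0. The median log2 fold change of the 8 was 0.70, beside 0.01 over all genes tested, and was 0.13 without M149, beside 0.01 over all genes. In none of the 9 did the 4 mice of the groups separate without overlap, as they did in 2.22% of all genes. Without M149 the log2 fold changes of Krt8 and Krt19 were below 0 and those of the other 6 above 0, and no marker had an unadjusted p under 0.05, against 3.72% of all genes tested without that mouse. The count of markers at that threshold was also 0 without M148, M151 or M153, 2 without M152 and 4 without M146. With Xist, an RNA made in females, as a covariate the count was 5 (Krt8, Krt18, Krt19, Muc1 and Cldn7), while over all genes it was 1143 in place of 637. In bulk RNA, more cells of a type and more RNA per cell cannot be told apart.

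Krt7 (ENSMUSG00000023039, GRCm38 chr15:101411043-101430313, plus strand), a type II keratin of glandular epithelia, had the smallest ratio of highest to lowest mouse. At 1.49 it was just below the 1.52 of Cldn7, whose fitted SE was smaller (0.10). Its level was 161, 130, 171 and 156 CPM in βIgf1r mice M148, M151, M152 and M153, and 135, 194, 140 and 140 CPM in βIgf1rKD mice M145, M146, M149 and M150. The βIgf1r mean was 154 ± 17.3 CPM and the βIgf1rKD mice had an SD of 27.9 CPM (n = 4), mean log2 CPM differed by -0.03 between the groups, and M146 stood above all others. The log2 fold change was -0.02 (SE 0.14, 95% interval -0.33 to 0.29, edgeR adjusted p = 0.9989). Its sign turned with 3 added covariates and 1 other scaling, and when M152, M145, M149 or M150 was left out. An antisense gene, Gm671, overlaps Krt7. The estimated counts of Krt7 were not whole numbers in any of the 8 mice, so that part of its reads was divided with transcripts of other genes.

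Krt8 and Krt18 form the obligate keratin pair of simple epithelia. Krt8 (ENSMUSG00000049382, chr15:101996698-102004482, minus strand) was at 99.0, 79.3, 121 and 97.4 CPM in βIgf1r mice and at 94.8, 92.0, 249 and 91.1 CPM in βIgf1rKD mice, in the same order of mice. A single library, M149, carried the group difference: the βIgf1rKD mean was 132 ± 78.4 CPM with it and 92.6 ± 1.94 CPM (n = 3) without it, against 99.3 ± 17.3 CPM in βIgf1r. The log2 fold change was 0.41 (SE 0.33, adjusted p = 0.987) and -0.10 without M149. Krt18 (ENSMUSG00000023043, chr15:102028180-102032027, plus strand) was at 93.9, 65, 137 and 102 CPM in βIgf1r and at 97.4, 122, 195 and 89.7 CPM in βIgf1rKD mice. M149 was again highest and M151 lowest, and the groups overlapped. The log2 fold change of Krt18 was 0.34 (SE 0.28, adjusted p = 0.987) and 0.05 without M149. With Xist as a covariate the log2 fold changes of Krt8 and Krt18 were 0.64 and 0.66 (edgeR, unadjusted p = 0.00442 and 0.00120). Neither passed the adjusted threshold in that fit. Over 10 alternative fits with all mice Krt8 ran from 0.13 to 1.09 and Krt18 from 0.18 to 0.9996, lowest with the acinar score and highest with the endothelial score as covariate. Near copies of both genes could in principle share reads, but the Krt8 pseudogene Krt8-ps, 98.6% identical over 941 bases, held 0 or 1 counts and the Krt18 copies Gm5200 and Gm17847 held 0 in every mouse.

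The ratio of the pair within a library ran from 0.553 in M146 to 0.939 in M149. Per kilobase, Krt8 over Krt18 was 0.774, 0.895, 0.652 and 0.703 in βIgf1r mice and 0.714, 0.553, 0.939 and 0.745 in βIgf1rKD mice, with means of 0.756 ± 0.106 and 0.738 ± 0.158 (SD, n = 4). Krt18 exceeded Krt8 in all 8 libraries, least so in M149. Krt8 over Krt7 was 3.74 in M149 and between 0.993 and 1.49 in the other 7.

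Krt19 (ENSMUSG00000020911, chr11:100140810-100148665, minus strand), the small type I keratin without a tail domain, was at 3.75, 2.11, 4.09 and 4.08 CPM in βIgf1r mice and at 5.29, 1.32, 25.6 and 2.61 CPM in βIgf1rKD mice. These levels rest on 58 to 141 estimated counts in βIgf1r and on 113, 37, 588 and 106 in βIgf1rKD mice. M149 held several times the level of any other mouse, and the remaining 3 βIgf1rKD mice lay on both sides of the βIgf1r range. The mean of βIgf1rKD was 8.70 ± 11.4 CPM with M149 and 3.07 ± 2.02 CPM without it, against 3.51 ± 0.945 CPM in βIgf1r. The fitted log2 fold change, which compares mean counts, was 1.299 (SE 0.78, 95% interval -0.45 to 3.05, adjusted p = 0.987), and the difference in mean log2 CPM was 0.46 (exact two-sided permutation p = 0.771, of which the smallest possible with 4 against 4 mice is 0.0286). Without M149 the log2 fold change was -0.20 (95% interval -1.19 to 0.78). With all mice it was 0.29 by limma-voom, 0.23 with the acinar score and 2.80 with the endothelial score as covariate. Krt19 over Krt7, per kilobase, was 0.477 in M149 and 0.0177 to 0.102 in the other 7 libraries, a ratio that does not depend on the scaling between libraries.

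Sox9 (ENSMUSG00000000567, chr11:112782224-112787760, plus strand), which maintains ductal identity, was at 0.319, 0.909, 1.17 and 1.37 CPM in βIgf1r mice and at 2.53, 0.571, 3.40 and 1.01 CPM in βIgf1rKD mice. M149 and M145 lay above every βIgf1r mouse, and M146 below all of them but M148. The means were 0.945 ± 0.458 and 1.88 ± 1.31 CPM, with a log2 fold change of 0.99 (SE 0.59, 95% interval -0.34 to 2.32, adjusted p = 0.987) that was 0.53 without M149. Onecut1 (ENSMUSG00000043013, chr9:74861921-74891781, plus strand), also called HNF6, was at 0.0532, 0.109, 0.534 and 0.142 CPM in βIgf1r mice and at 0.515, 0, 1.001 and 0.493 CPM in βIgf1rKD mice. The 0 counts in M146 allow a level of up to 0.107 CPM (3 counts). Its log2 fold change was 1.24 (SE 0.93, 95% interval -0.85 to 3.33) and 0.69 without M149. The noncoding gene Gm20649 shares 2172 identical bases with Onecut1 on the same strand and held 0 to 4 counts, which is of the order of the Onecut1 counts in the lowest mice.

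Cftr (ENSMUSG00000041301, chr6:18170687-18322768, plus strand), the apical chloride and bicarbonate channel of duct cells, did not reach the filter. It was at 0.160, 0.182, 0.356 and 0.142 CPM in βIgf1r mice, from 6, 5, 10 and 3 counts. In βIgf1rKD mice it was at 1.08, 0.107, 1.39 and 0.247 CPM, from 23, 3, 32 and 10 counts. M145 and M149 were both far above the other 6 mice, whereas M146 was the lowest. The means were 0.210 ± 0.0987 and 0.706 ± 0.627 CPM, and 0.477 ± 0.524 CPM in βIgf1rKD without M149. Fitted without a filter the log2 fold change was 1.68 (SE 0.71, 95% interval 0.15 to 3.20, p = 0.0336, adjusted p = 0.784), and the exact permutation p of log2 CPM was 0.286. The antisense gene Gm15592 and the pseudogene Gm15595 lie within the span of Cftr.

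Muc1 (ENSMUSG00000042784, chr3:89229057-89233381, plus strand), a mucin of the apical membrane of glandular epithelia, was at 4.52, 4.95, 17.1 and 11.7 CPM in βIgf1r mice and at 29.2, 3.75, 50.6 and 18.1 CPM in βIgf1rKD mice. M149, M145 and M150 lay above all βIgf1r mice, and M146 below all of them. The means were 9.58 ± 6.003 and 25.4 ± 19.8 CPM, and Muc1 had the largest fitted change of the 8 tested markers, with a log2 fold change of 1.41 (SE 0.68, 95% interval -0.12 to 2.94, p = 0.0664, adjusted p = 0.987, exact permutation p of log2 CPM = 0.286). Without M149 it was 0.83 (95% interval -0.65 to 2.31).

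Cldn7 (ENSMUSG00000018569, chr11:69964779-69967885, plus strand), a claudin of epithelial junctions and lateral membranes, gave the only unadjusted p under 0.05. Its level was 33.0, 29.5, 35.5 and 33.3 CPM in βIgf1r mice and 35.04, 43.0, 45.0 and 35.02 CPM in βIgf1rKD mice. Only M152, at 35.5 CPM, kept the groups from separating, since it lay above M145 and M150. The means were 32.8 ± 2.45 and 39.5 ± 5.24 CPM, and the log2 fold change was 0.27 (SE 0.10, 95% interval 0.03 to 0.50, p = 0.0302, adjusted p = 0.987, exact permutation p of log2 CPM = 0.0857). Without M149 the log2 fold change was 0.20 (95% interval -0.04 to 0.43), and its unadjusted p was also above 0.05 without M148, M151, M153 or M146.

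**Figure D2:**
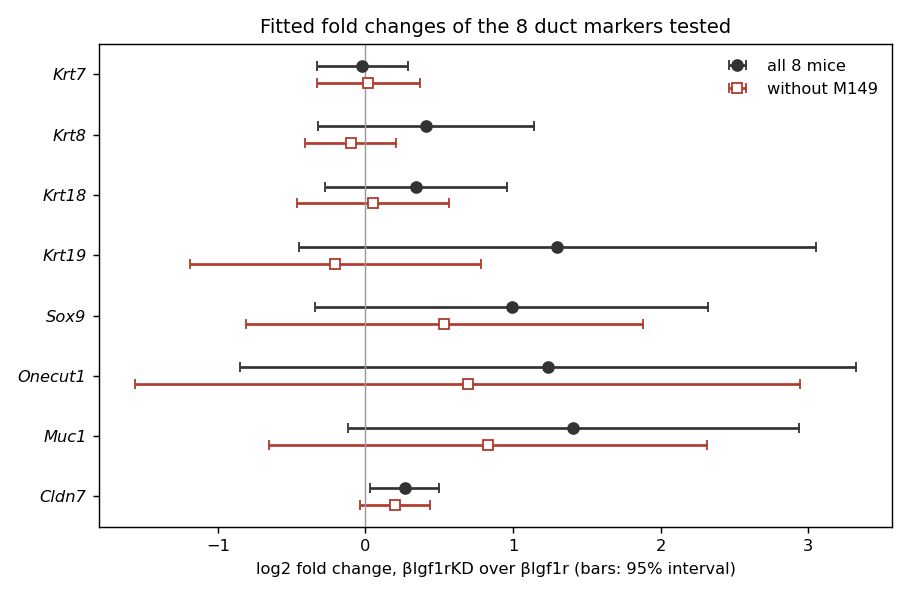
Log2 fold change of βIgf1rKD over βIgf1r from edgeR's fit for the 8 markers tested (horizontal axis, bars are 95% intervals), with all 8 mice (filled circles) and without M149 (open squares). The interval of Cldn7, 0.03 to 0.50, lies above 0 with all mice and reaches below 0 without M149, and those of the other 7 include 0 in both fits.

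Of the 5 variable markers, Muc1, Onecut1 and Sox9 followed the acinar RNA of the same library, while for Cftr and Krt19 the relation did not pass the adjusted threshold. An acinar score, the mean z-score of log2 CPM over the 12 acinar genes, was -1.57 in M148, -1.02 in M151, -0.81 in M146, 0.19 in M153, 0.48 in M150, 0.78 in M152, 0.91 in M145 and 1.03 in M149. In that order of mice Muc1 was at 4.52, 4.95, 3.75, 11.7, 18.1, 17.1, 29.2 and 50.6 CPM, low in the 3 mice with the lowest scores and highest in the mouse with the highest. Across the 8 mice, log2 CPM of Muc1 and the score gave r = 0.933 and rho = 0.905 (exact permutation p = 0.000818 and 0.00456, adjusted over 18 relations 0.0147 and 0.0274). After centring each group on its own mean r was 0.917, without M148 and M151, the mice farthest from the median score, it was 0.959, and without M149 it was 0.943. Groups of 4 mice are too few for an r of their own.

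Onecut1 and Sox9 gave similar values, with the limits on their counts given above. For Onecut1 r was 0.883 and rho 0.905 (exact permutation, adjusted p = 0.0278 and 0.0274), with r = 0.874 within groups, 0.973 without M148 and M151, and 0.859 without M149. For Sox9 r was 0.875 and rho 0.905 (exact permutation, adjusted p = 0.0196 and 0.0274), with r = 0.848 within groups, 0.840 without M148 and M151, and 0.861 without M149. Cftr gave r = 0.743 and rho = 0.810 (exact permutation, adjusted p = 0.0815 and 0.0628), and Krt19 r = 0.596 and rho = 0.786 (adjusted p = 0.168 and 0.0628). The values for Krt18, Krt8 and Cldn7 were r = 0.545, 0.527 and 0.370, none past the threshold, and that of Cldn7 turned to -0.206 without M148 and M151. Krt7 alone was negative, at r = -0.280. The acinar transcription factors Ptf1a, Rbpjl, Bhlha15 and Nr5a2 and all 12 acinar enzymes had fold changes above 0 in βIgf1rKD as well (0 of 16 with an unadjusted p under 0.05), for example Ptf1a at 2.27 ± 2.29 and 5.74 ± 3.28 CPM. Over all genes tested 52.3% lay above 0 and 4.12% had such a p. With the acinar score as a covariate the log2 fold change of Muc1 was 0.22, that of Sox9 0.11, that of Krt19 0.23 and that of Onecut1 0.00. That of Cldn7 stayed about as large, at 0.25, though its unadjusted p was no longer under 0.05.

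**Figure D3:**
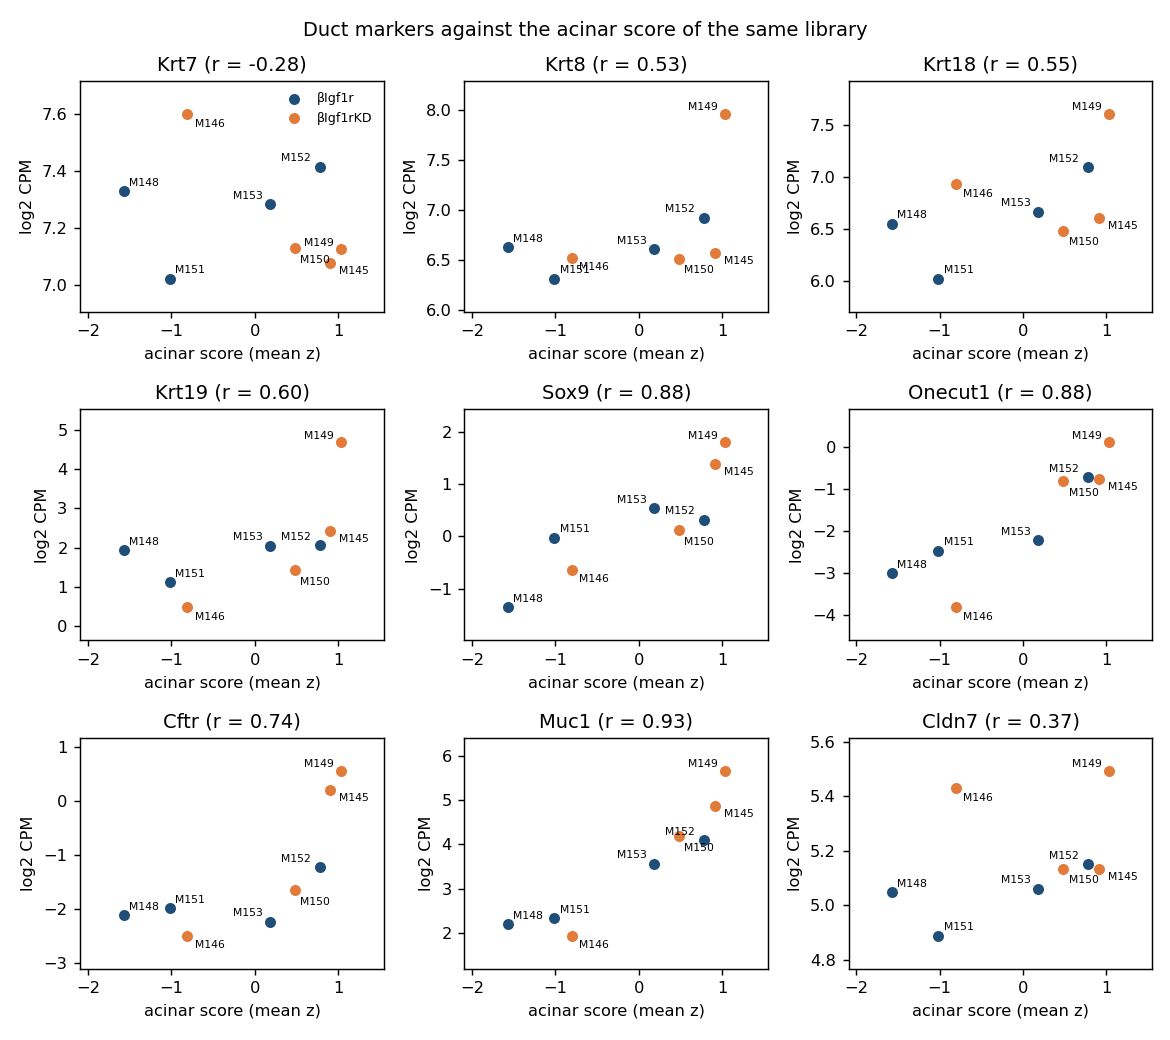
Log2 CPM of each duct marker (vertical axis, range different for each gene) against the acinar score of the same library (horizontal axis, mean z-score over 12 acinar genes), with 1 point per mouse coloured by group. Muc1, Onecut1 and Sox9 climb with the score in both groups, while Krt7 shows no such slope.

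Krt7 went with endocrine RNA instead. Against the mean log2 CPM of 6 secretory granule genes (Chga, Chgb, Scg2, Scg3, Pcsk2 and Cpe), Krt7 gave r = 0.859 and rho = 0.881 (exact permutation, adjusted p = 0.0321 and 0.0326). The value was 0.912 within groups, 0.913 without M146 and M149, the farthest mice, and 0.927 without M149 alone. Cftr gave r = -0.818 and rho = -0.786 against the same genes (adjusted p = 0.0321 and 0.0628), and r was -0.607 without M146 and M149. Values for the other 7 markers did not pass the adjusted threshold. All markers are shares of the same libraries, so that a library with more exocrine RNA has less room for endocrine RNA, and the 2 sets of relations are not independent.

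The markers were also compared with each other. Of the 36 pairs 30 had a positive r of log2 CPM across the 8 mice, and all 6 negative ones involved Krt7. By exact permutation 11 pairs had an adjusted p under 0.05 for r and 0 for rho. The closest pair was Onecut1 and Muc1 (r = 0.953, adjusted p = 0.00804, and rho = 0.929, adjusted p = 0.0548), whose r was 0.921 without M146 and M149 and 0.936 without M149. Sox9 and Muc1 gave r = 0.899 and rho = 0.881 (exact permutation, adjusted p = 0.0172 and 0.0551), with r = 0.844 without M148 and M149. Cftr and Muc1 gave r = 0.883 and rho = 0.905 (exact permutation, adjusted p = 0.0172 and 0.0548), with r = 0.755 without M145 and M149. Krt8 and Krt18 gave r = 0.883 and rho = 0.786 (exact permutation, adjusted p = 0.0172 and 0.0914), with r = 0.738 without M149 and M152. Other relations rested on M149: for Krt8 and Krt19 r was 0.902 with all mice and 0.512 without M149, and for Krt18 and Krt19 it was 0.679 and 0.118. Leaving out M149 brought Krt7 closer to Krt18, from 0.337 to 0.803, and to Cldn7, from 0.396 to 0.771, whereas with M149 kept and M146 and M152 left out the values were 0.152 and -0.017.

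**Figure D4:**
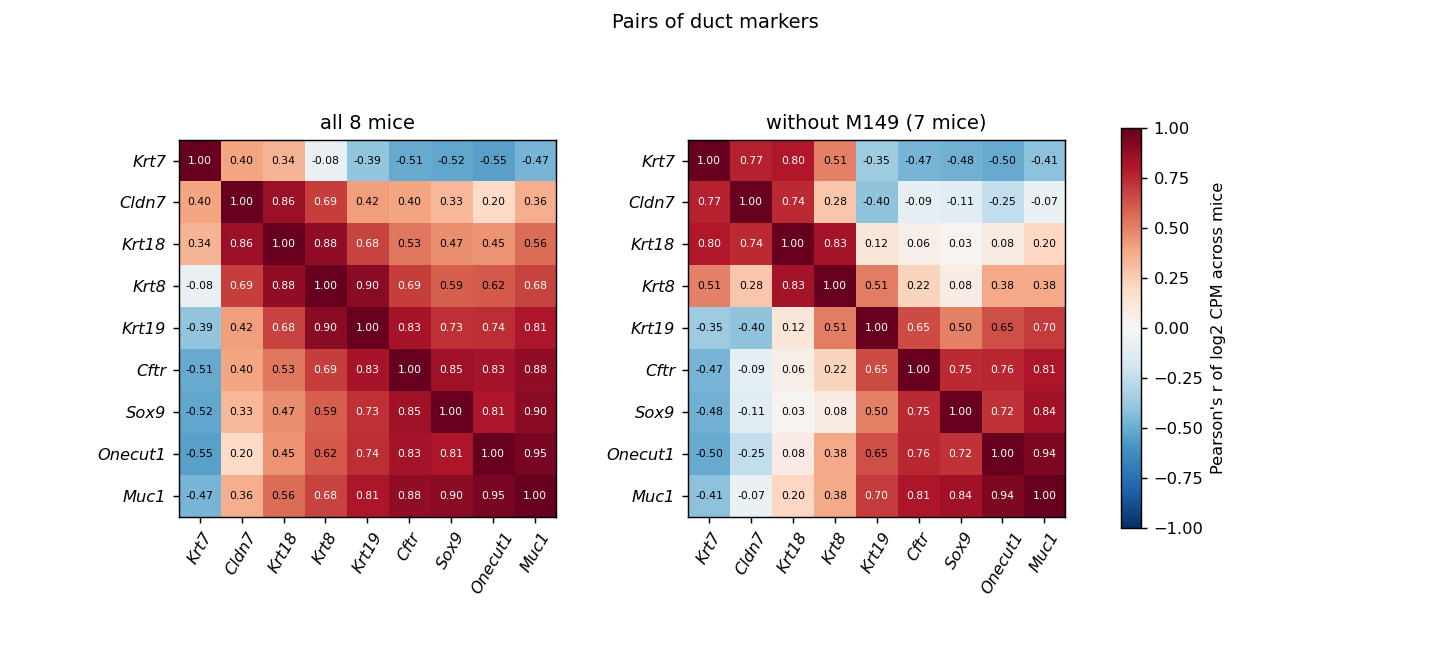
Pearson's r of log2 CPM for each pair of duct markers across all 8 mice (left) and across 7 mice without M149 (right), on a colour scale from -1 (blue) to 1 (red) with the value in each cell. Cftr, Sox9, Onecut1 and Muc1 stay above 0.7 with each other in both panels, and the block that joins Krt18 and Krt8 to them on the left fades on the right.

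The genes whose log2 CPM was most like that of each marker, out of the 15474 tested, were also listed as a description over 8 mice. For Muc1 these were Tst, the mitochondrial thiosulfate sulfurtransferase (r = 0.997), Tmem97 (0.995) and the kallikrein Klk1b3 (0.993), and the same 3 led without M149. Onecut1 was most like Fxyd1 (0.989), Bmp7 (0.984) and Ptger3 (0.976), and Fxyd1 and Bmp7 led again without M149. Krt7 was most like the zinc finger gene Mzf1 (0.991), Enho (0.990) and Bex2 (0.981), of which Mzf1 and Enho led without M149. Krt8 was most like Sfn (0.986), the epithelial 14-3-3 protein, Card10 (0.978) and 1110038B12Rik (0.977). Krt19 was most like another type I keratin, Krt23 (0.978), with Tgif1 (0.978) and Slfn9 (0.976). Neither Krt8 nor Krt19 kept any of its 3 without M149. Krt18 was most like Psmd4 (0.971), Hmg20b (0.971) and Eif2ak3 (0.966), Sox9 like Galnt3 (0.978), Etv6 (0.978) and Rpl23 (0.977), Cftr like Agmo (0.988), Cat (0.971) and Cdc42ep1 (0.971), and Cldn7 like Ftl1 (0.974), the junction protein Tjp3 (0.959) and Mrps18b (0.954). These rankings rest on 8 mice and share the depth and cell mix of the same libraries.

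A further 43 genes of duct cells, in 6 lists by role, were set beside the 9 markers, and 39 of them were tested. Of these 27 had a log2 fold change above 0 and 12 below, with a median of 0.10, and 0 passed the adjusted threshold. Over all genes tested 52.3% lay above 0. An unadjusted p under 0.05 was found for 2, against 4.12% of all genes. The counts in each of the 6 lists below are read against the same shares of all genes. M149 was highest in 17 of the 39, and in 16.2% of all genes tested. Without M149, 22 were above and 17 below 0, with a median of 0.02.

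Of the 5 transcription factors 4 had a fold change above 0, and Elf3, an epithelial ETS factor, had an unadjusted p under 0.05. Elf3 was at 11.1, 11.7, 15.02 and 12.4 CPM in βIgf1r and at 30.8, 19.9, 13.0 and 12.8 CPM in βIgf1rKD mice, so that M145 and M146 stood above the rest (log2 fold change 0.61, SE 0.27, p = 0.0479, adjusted p = 0.987, exact permutation p = 0.171). Here M149 was not high, and without it the log2 fold change was 0.75 (SE 0.26). Glis3, Ehf, Hes1 and Onecut2 had log2 fold changes of -0.11, 0.22, 0.21 and 0.24.

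Genes of ion and water transport were split, 4 above and 4 below 0. Slc26a6, an anion exchanger of the apical membrane, had the highest log2 fold change of the 8 tested, with means of 1.88 ± 0.725 and 3.12 ± 1.32 CPM (log2 fold change 0.72, SE 0.37, p = 0.0787, exact permutation p = 0.171). Aqp1, a water channel of both duct and capillary, was at 4.97 ± 1.73 and 2.76 ± 1.97 CPM (log2 fold change -0.86, SE 0.51, p = 0.125, exact permutation p = 0.171). The chloride channel Ano1 was at 15.5 CPM in M149 and at 4.00 to 8.62 CPM in the others, and its log2 fold change was 0.49 with and 0.02 without M149. The log2 fold changes of Slc4a2, Slc4a4, Slc12a2, Kcnn4 and the carbonic anhydrase Car2 lay between -0.18 and 0.45.

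Surface genes were also divided, with 4 of 7 above 0. Epcam and Cdh1, adhesion molecules that islet cells share with ducts, were at 92.9 ± 4.22 and 101 ± 7.87 CPM and at 292 ± 10.02 and 292 ± 27.7 CPM. Cldn3 was at 31.0 CPM in M149 and at 6.84 to 12.5 CPM in the others, and its log2 fold change was 0.71 with and 0.13 without M149. Cldn4, Tspan8, Prom1 and Cd24a had log2 fold changes between -0.20 and 0.29. All 4 tested genes of secreted proteins had a fold change above 0, and Spp1, Clu and Tff2 were highest in M149. Clu, the chaperone clusterin, was at 1029 CPM in M149 and at 133 to 289 CPM in the other 7 mice, and its log2 fold change was 1.15 (SE 0.57, p = 0.0748, exact permutation p = 0.371) with and 0.17 without that mouse. Tff2, a trefoil peptide, was at 34.3, 46.2, 300.3 and 151.2 CPM in βIgf1r mice and at 270, 65.8, 352 and 201 CPM in βIgf1rKD mice, low in the same 3 mice as Muc1. The log2 fold change of Spp1 was 0.10 and that of Pigr, the receptor that carries polymeric immunoglobulins across epithelia, 0.32.

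Of the 5 primary cilium genes 4 had a fold change below 0, and Dcdc2a, a doublecortin protein of the cilium, was the only one with an unadjusted p under 0.05. It was at 40.1, 38.3, 39.7 and 48.2 CPM in βIgf1r mice and at 27.8, 27.6, 38.2 and 33.1 CPM in βIgf1rKD mice. All βIgf1rKD mice lay below all βIgf1r mice (exact permutation p = 0.0286, the smallest possible), with a log2 fold change of -0.39 (SE 0.12, p = 0.0101, adjusted p = 0.987), and -0.49 without M149. Such a separation was found in 2.22% of all genes. Pkd1, Pkd2, Bicc1 and Pkhd1 had log2 fold changes between -0.10 and 0.19. All 10 keratin and desmosome genes had a fold change above 0, and none an unadjusted p under 0.05. Over all genes tested these shares were 52.3% and 4.12%. The desmosomal genes Dsp, Jup, Dsg2, Dsc2 and Ppl had log2 fold changes of 0.01 to 0.11, Plec one of 0.08, and the desmosomal plakophilin Pkp2 one of 0.26. The inducible keratins Krt20, Krt23 and Krt80 had values of 1.65 (SE 0.88), 1.05 (SE 0.75) and 0.75 (SE 0.35), and all were highest in M149, at 5.66, 7.97 and 9.27 CPM. Krt20 was also high in M145, at 4.96 CPM. Without M149 the log2 fold change of Krt20 was 1.17 (SE 0.93), that of Krt23 -0.16 and that of Krt80 0.31.

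**Figure D5:**
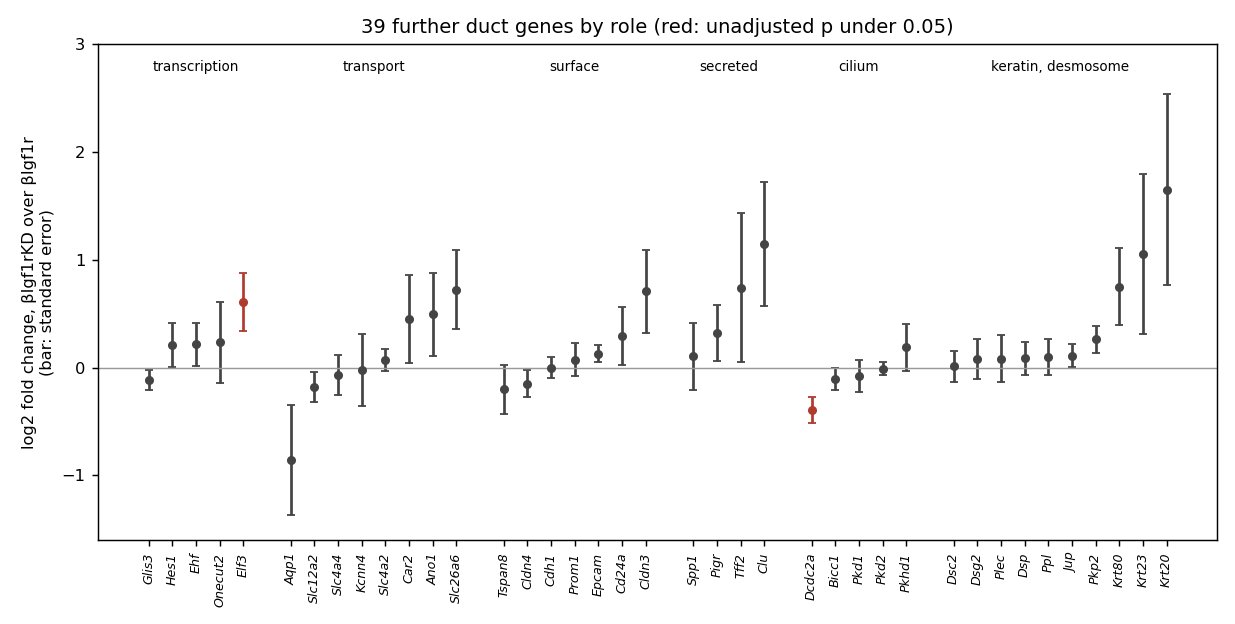
Log2 fold change of βIgf1rKD over βIgf1r (vertical axis, bars are standard errors) for the 39 further duct genes tested, ordered within 6 roles. Elf3 and Dcdc2a, in red, are the only ones with an unadjusted p under 0.05, and the genes with the highest values, Krt20, Clu and Krt23, also have wide bars.

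RNA of other cell types also varied between the libraries, and not always in the libraries with the highest marker levels. Summed over the 10 fibroblast and pericyte genes, the share of counts was 0.0183% to 0.0282% in βIgf1r libraries and 0.0132% to 0.0308% in βIgf1rKD libraries, the highest being that of M149 and the lowest those of M145 and M146. M145 was the second highest mouse for Krt19, Sox9, Cftr and Muc1. None of the 10 genes was at 0, and Rgs5, a pericyte gene, had a log2 fold change of -0.31 and was the only one with an unadjusted p under 0.05. The share of the 10 leukocyte genes was 0.0198% to 0.0462% and 0.0212% to 0.0358%, highest in M151. Itgam, an integrin of myeloid cells, had a log2 fold change of 1.14 and an unadjusted p under 0.05, and was highest in M149, at 4.92 CPM. Its βIgf1rKD mean was 3.02 ± 1.58 CPM with M149 and 2.39 ± 1.155 CPM without it, against 1.38 ± 0.5135 CPM in βIgf1r. For the 9 duct markers together the share of counts was 0.0380% to 0.0487% and 0.0321% to 0.0593%, and in every library most of this came from Krt7, Krt8, Krt18 and Cldn7. All 12 endothelial genes had a fold change below 0 in βIgf1rKD, 6 of them with an unadjusted p under 0.05 (Pecam1, Cdh5, Kdr, Flt1, Tek and Esam, with log2 fold changes of -0.24 to -0.38). Over all genes tested 52.3% had a fold change above 0 and 4.12% an unadjusted p under 0.05. Of the 18 endocrine genes Ins1 alone had such a p, with a log2 fold change of -0.92. The 6 mesothelial genes took 0.00172% to 0.00376% of counts in βIgf1r and 0.00156% to 0.00268% in βIgf1rKD libraries, with 0.00178% in M149. The part of these cells in the values of the duct markers was not tested.

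The sequences upstream of 4 markers are given because Muc1, Onecut1 and Cftr varied together across mice while Cldn7 stayed nearly level. RefSeq windows on GRCm38.p6 matched 7 of the 9 markers by symbol (all but Krt19 and Sox9), and the 250 bases before the start site were searched on both strands for the letters of a TATA box (TATAAA), a GC box (GGGCGG), an Onecut site (ATCAAT) and a Sox core (AACAAT). Each run reads 5′ to 3′ on the gene's strand, the plus strand for all 4, and capitals mark matches.
Muc1, chr3:89228806-89229055: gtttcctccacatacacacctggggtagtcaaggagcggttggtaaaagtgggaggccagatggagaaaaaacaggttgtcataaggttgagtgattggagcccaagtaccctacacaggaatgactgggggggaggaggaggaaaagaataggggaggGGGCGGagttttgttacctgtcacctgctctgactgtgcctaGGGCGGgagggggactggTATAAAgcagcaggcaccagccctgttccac
Onecut1, chr9:74861671-74861920: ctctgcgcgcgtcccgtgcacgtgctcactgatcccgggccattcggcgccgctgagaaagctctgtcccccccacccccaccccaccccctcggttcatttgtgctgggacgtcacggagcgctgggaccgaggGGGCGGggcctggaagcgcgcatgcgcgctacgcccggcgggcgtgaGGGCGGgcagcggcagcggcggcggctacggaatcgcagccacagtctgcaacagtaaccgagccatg
Cftr, chr6:18170437-18170686: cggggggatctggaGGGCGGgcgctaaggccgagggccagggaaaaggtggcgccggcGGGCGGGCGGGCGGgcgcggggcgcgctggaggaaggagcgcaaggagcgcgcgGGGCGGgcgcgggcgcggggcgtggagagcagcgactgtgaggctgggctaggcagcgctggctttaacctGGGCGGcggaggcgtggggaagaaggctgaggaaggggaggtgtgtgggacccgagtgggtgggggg
Cldn7, chr11:69964529-69964778: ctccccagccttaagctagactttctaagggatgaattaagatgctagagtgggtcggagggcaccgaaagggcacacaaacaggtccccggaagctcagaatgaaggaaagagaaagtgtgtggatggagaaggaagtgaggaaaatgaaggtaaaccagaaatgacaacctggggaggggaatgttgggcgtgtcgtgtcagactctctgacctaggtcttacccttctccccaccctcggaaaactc

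Muc1 alone of these had a TATA box, 31 bases before its start, a motif that 12.4% of all 32851 windows hold. GC boxes stood in the windows of Muc1, Onecut1, Cftr, Krt7 and in the other of the 2 Cldn7 windows, and in 32.7% of all windows. Cftr had 6 of them, 3 overlapping each other in a run. An Onecut site was present before Krt8 and in 6.72% of all windows, and the Sox core, held by 9.42% of windows, was in none of the markers' windows. The windows of Cftr and Onecut1 were rich in G and C, at 76.4% and 71.6%, against 54.8% for Muc1, 51.2% for Cldn7 and a median of 52.4% over all windows. Muc1, Onecut1 and Cftr thus all held a GC box, but so did Krt7 and the other Cldn7 window, and the GC box does not set them apart. They did not share the TATA box or the base composition.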

How the data were processed

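The authors deposited a table of estimated counts per gene, not normalized, for islets of 4 βIgf1r and 4 βIgf1rKD mice, from stranded mRNA libraries. The submitters' processing notes name fastp, kallisto and GRCm38 without versions, and the annotation release is not given in the sources used here. Of all values 13.43% were not whole (tolerance 0.001), since reads that fit several transcripts are divided, and near copies can therefore trade reads. Groups came from the sample labels, and columns were matched to mice by mouse number. No batch was labelled, and mice of both sexes, not labelled singly, stood in each group.

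The estimated counts were rounded. The filter of edgeR 4.0.16 (at least 10 counts, scaled to library size, in 4 mice and a total of 15) kept 15474 genes, and with TMM factors its quasi-likelihood test compared the groups, with Benjamini-Hochberg adjustment over all genes tested (R 4.3.3). Single values were tested by exact permutation, two-sided, of the 70 ways to assign 4 and 4 mice. Log2 CPM used a prior count of 2. Floors (3 counts) cover counting error only. Depth makes this error small for Krt7, Krt8, Krt18 and Cldn7 and large for Cftr and Onecut1.

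The markers and gene lists were chosen with earlier results of these data known. Genes were named from the 9 markers, the 4 most abundant genes of each other list (of the duct lists all tested genes), listed genes with an unadjusted p under 0.05, the 3 genes most alike each marker, and copies of a marker. Listed genes that failed the filter were named for that, and Gm671, Gm15592 and Gm15595 for their overlap. Positions and principal transcript lengths are from GENCODE M21 (GRCm38), promoter windows from RefSeq. Alternatives were RLE factors, DESeq2 1.42.0, limma-voom (limma 3.58.1), other filters, acinar score, endothelial score or Xist as covariate, 2 other scalings, a prior count of 0.5 and each mouse left out. Relations, pairs and likeness without M149 were added after the data were examined, as were the p-values of pairs. A few listed genes are not reported here. The scripts were tested on simulated counts. Plots were drawn with matplotlib 3.10.9.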

Additional observations from a re-analysis of the deposited data

Results flagged for a closer look

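Of 96 groups of 4 mice (48 genes, the 9 markers and the 39 further duct genes tested), 7 held a mouse whose gap to its nearest neighbour exceeded Dixon's 95% critical value for 4 values, and 4.8 are expected by chance. Among the markers, M146 was high for Krt7 in βIgf1rKD (194 CPM, the other 3 at 135 to 140). M149 was high for Krt8 (249 CPM against 91.1 to 94.8) and for Krt19 (25.6 CPM against 1.32 to 5.29). Among the further duct genes M149 was high for Cldn3 (31.0 CPM against 9.40 to 11.7) and for Clu (1029 CPM against 133 to 280). M150 was high for Glis3 (48.7 CPM against 39.8 to 40.6). In βIgf1r mice M151 was high for Slc4a4 (7.78 CPM against 4.92 to 5.21). Of the 7, 4 are thus in M149, the library that also held the most collagen and acinar RNA.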

How the results depend on the processing

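No paired analysis was possible because the mouse numbers of the groups are not shared. No duct marker was called at an adjusted p under 0.05 under any alternative run. Over all genes, DESeq2 called 8 and limma-voom 1, where edgeR called 0. Of the values recomputed 312 kept their direction and side of the threshold or stayed within 1.5 times, 31 counts moved and 16 values reversed. The log2 fold change of Krt7 reversed with the acinar score (0.0209), the endothelial score (0.192) or Xist (0.0137) as a covariate and with scaling to endocrine genes (0.0819), and ranged from -0.160 to 0.0326 with each mouse left out (log2 CPM difference -0.152 to 0.0219). With each mouse left out Krt8 ranged from -0.10 to 0.55 (log2 CPM difference -0.0842 to 0.40) and Krt19 from -0.20 to 1.66 (-0.35 to 1.05), both negative only without M149. The count of markers at an unadjusted p under 0.05, 1 by edgeR, was 3 without a filter (Cldn7, Muc1 and Cftr), 0 with the acinar score, 5 with Xist (Krt8, Krt18, Krt19, Muc1 and Cldn7), 2 with endocrine scaling (Muc1 and Cldn7), and 0 to 4 with a mouse left out: 0 without M148, M151, M153 or M149, 2 without M152 and 4 without M146 (Krt19, Sox9, Onecut1 and Muc1). The same count over all genes, 637, was 1098, 390 and 1143 without a filter, with the acinar score and with Xist, and 383 (without M148) to 1114 (without M152), with 402 without M153 and 960 without M146. Over the other duct genes it was 2, and 4 with DESeq2, without a filter, with the endothelial score or with endocrine scaling, 1 with the acinar score, 9 with Xist, and 1 (without M148 or M153) to 6 (without M150), with 5 without M152 or M146 and 4 without M149. Of all genes at an unadjusted p under 0.05, 54.2% were higher in βIgf1rKD, and 93.3% with endocrine scaling, which set the median of all genes at 0.12, 29.6% with the endothelial score, 43.4% with limma-voom and 67.2% without M146. Where a value changed, the cause was not tested. With at least 10 counts in every mouse Onecut1 could not be fitted. Depth limits Cftr and Onecut1, at 0 to 32 counts per mouse.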
